A study of Rattus norvegicus with 47 samples.

Results

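Kidneys of rats that had carried lead (Pb) pellets for 12 months were compared, gene by gene, with kidneys of rats that had carried tantalum (Ta) pellets for the same time. The comparison took 7 Pb and 8 Ta kidneys, chosen by the metal that the labels give, and these 15 libraries belong to a series of 47. All pellets were cylinders with a diameter of 1 mm and a length of 2 mm, and allocation of the rats to metals was random, per the series description. Tantalum is described there as inert, so both groups had surgery and an implant, and a kidney without a pellet is not analysed here. The other 32 libraries, from kidneys with tungsten (W), cobalt (Co), aluminium (Al) or depleted uranium (DU) pellets and the same 12 months, served in a second comparison with Pb. Each library carries its own animal number. Strain, sex, age and implant site are not given in the sources used here. The numbers follow each other within a metal, so that any order of handling and the metal cannot be told apart.

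Lead reaches the kidney in the blood and is taken up above all by cells of the proximal tubule, the segment that reabsorbs most of the filtered fluid, sugar, amino acids, phosphate and protein. The metal binds thiol groups and takes the place of zinc and calcium in proteins, and the zinc enzyme that it is best known to inhibit is the heme synthesis enzyme encoded by Alad. Long exposure is known for damage to proximal tubules and for interstitial scarring. Metallothioneins are small thiol-rich proteins that bind metals, and in rats the glutathione S-transferase gene Gstp1 is known to respond to lead.

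Of 15868 genes tested, 8517 differed between Pb and Ta kidneys (53.7%), with 3891 higher (24.5%) and 4626 lower (29.2%) in Pb. Of these, 945 were at least 2-fold higher and 1974 at least 2-fold lower in Pb, and 187 and 361 passed a 4-fold difference. All Pb libraries lay above all Ta libraries for 13.0% of the tested genes and below all of them for 13.9%. The median log2 fold change over all tested genes was -0.07. On the first principal component of log2 CPM, which held 36% of the variance, Pb libraries scored 48.1 to 78 and Ta libraries -60.1 to -42.1. CPM values are counts scaled to the library total multiplied by the TMM factor of that library. These factors were lower in every Pb library than in any Ta library, and a lower factor gives a higher CPM for the same count and total. CPM values are not corrected for transcript length, so levels are compared between groups and not between genes. Adjusted p-values come from edgeR's quasi-likelihood F test over all 47 libraries with Benjamini-Hochberg adjustment over all tested genes, and a gene is called higher or lower where that value is under 0.05.

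Library totals were 21604755 to 29440870 counts in Pb kidneys and 23259750 to 35775818 in Ta kidneys, and 16219 to 17050 genes had a count in Pb libraries, against 14981 to 16604 in Ta libraries. Mitochondrially encoded genes took 22.6% ± 1.30 of the counts in Pb kidneys and 19.5% ± 2.52 in Ta kidneys (SD). Kidney markers were present in each library, with at least 2811 CPM of the thick limb gene Umod in Pb kidneys and at least 1716 CPM in Ta kidneys. Ta replicates 4, 5 and 6 stood apart, with a mean log2 CPM of macrophage markers between 4.28 and 5.05, against 2.66 to 3.10 in the other Ta kidneys and 2.63 to 3.93 in Pb kidneys. A further measure, called the balance here, set 41 cytosolic ribosomal protein genes against 36 genes whose proteins are very large, as the difference of their 2 mean log2 CPM values. This balance was 2.98 to 4.33 in Pb libraries and 1.19 to 2.05 in Ta libraries, with no overlap. With the balance as a covariate 854 genes were called, 467 higher and 387 lower, and since the groups do not overlap in it, this fit cannot fully separate balance and metal. The part of the balance in the results that follow was not tested beyond that fit, whose counts stand beside the gene groups. In a further fit the covariates were the mean levels of 2 gene lists, the transporters of the first proximal segments and the principal cells of the collecting duct, called cell make-up here. The mean log2 CPM of the proximal list was 6.47 to 7.69 in Pb libraries and 8.35 to 8.85 in Ta libraries, with no overlap. This fit therefore cannot fully separate that mean and metal either, and members of the 2 lists help to form the covariates. The covariates are RNA levels and not counts of cells. In the main fit, without covariates, the counts of a gene group are to be read against 24.5% of all tested genes higher and 29.2% lower. Counts from the balance fit are to be read against 467 higher and 387 lower of 15868 genes. Those with cell make-up covariates stand against 3007 higher and 3449 lower of 15868. Those without Ta replicates 4, 5 and 6 stand against 3797 higher and 4047 lower of 16085.

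Genes of the glomerulus, the filter of the kidney, were lower in Pb kidneys. All 13 podocyte genes tested were lower, with a median log2 fold change of -1.88, against 29.2% of all genes lower and a median of -0.07. Podocytes are the cells whose foot processes and slit diaphragms form the outer layer of the filter. Values below are the lowest, the median and the highest library of a group. Podxl, which encodes the podocalyxin of the foot process surface, had 1.93, 2.94 and 5.39 CPM in Pb kidneys, against 20.3, 32.9 and 39.6 CPM in Ta kidneys. On the log2 scale it changed by -3.19 ± 0.52 (SE, adjusted p = 1.45e-06), a 9.14-fold lower level in Pb. Nphs1, which encodes nephrin of the slit diaphragm, had 5.32, 8.36 and 15.1 CPM in Pb kidneys, against 16.3, 47.7 and 75.5 CPM in Ta kidneys, with a log2 fold change of -2.40 ± 0.42 (SE, adjusted p = 4.10e-06). For both genes every Pb kidney lay below every Ta kidney.

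The podocyte adaptor gene Cd2ap, which ties nephrin to the actin skeleton, had 26.4, 35.7 and 40.0 CPM in Pb kidneys, against 62.3, 77.1 and 83.9 CPM in Ta kidneys. Its change of -1.10 ± 0.10 (SE, adjusted p = 1.03e-11) on the log2 scale was smaller than that of Podxl, and the groups again did not overlap. Synpo, which encodes the actin-associated synaptopodin, had 6.36, 9.22 and 13.8 CPM in Pb kidneys, against 41.4, 54.6 and 66.0 CPM in Ta kidneys, with a change of -2.47 ± 0.35 (SE, adjusted p = 9.73e-08). Wt1, a transcription factor of podocytes, was 6.13-fold lower (-2.62, adjusted p = 2.47e-05), and Ptpro, a phosphatase of the foot process, 6.12-fold lower (-2.61, adjusted p = 1.24e-06). The smallest change in the list was that of Actn4, an actin crosslinker (-0.60, adjusted p = 2.56e-07). Of the 13 genes, 12 showed no overlap between the groups, where 13.9% of all tested genes were lower in Pb without overlap. In whole kidney, fewer cells of a type and less RNA per cell cannot be told apart. With the balance as a covariate 2 of 13 podocyte genes were called, both lower, one of which was Cd2ap (-0.50, adjusted p = 0.0337), and the list median was -0.66.

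Endothelial genes were lower as well, 12 of 14, with a median log2 fold change of -1.66. Kdr, through which vascular endothelial growth factor acts on these cells, had 1.67, 2.78 and 5.26 CPM in Pb kidneys, against 35.5, 43.0 and 47.1 CPM in Ta kidneys. This was 13.6-fold lower in Pb (log2 fold change -3.77 ± 0.63 SE, adjusted p = 2.07e-06) and the lowest fold change among the genes that the naming rule took up. The junction gene Pecam1 had 6.86, 11.8 and 13.6 CPM in Pb kidneys, against 40.0, 52.0 and 61.0 CPM in Ta kidneys, a change of -2.23 ± 0.38 (SE, adjusted p = 3.82e-06). Tek, the receptor of angiopoietins, had 2.55, 4.57 and 7.71 CPM in Pb kidneys, against 22.2, 29.7 and 39.6 CPM in Ta kidneys, with a change of -2.56 ± 0.45 (SE, adjusted p = 4.77e-06). In all 3 genes the groups stood apart without overlap. Plvap, which forms the diaphragms of fenestrated capillaries, was 5.11-fold lower (-2.35, adjusted p = 2.01e-04), a call lost with the cell make-up covariates (-1.08, adjusted p = 0.0676). Vwf, which encodes von Willebrand factor, did not follow the other markers, with 46.8, 96.0 and 129.5 CPM in Pb kidneys, against 19.8, 67.8 and 89.7 CPM in Ta kidneys (log2 fold change 0.57 ± 0.26 SE, adjusted p = 0.059), and Egfl7 was not called either (-0.23, adjusted p = 0.369). By DESeq2 the higher Vwf passed the threshold. No endothelial gene was called with the balance as a covariate, where the median was -0.55.

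**Figure D1:**
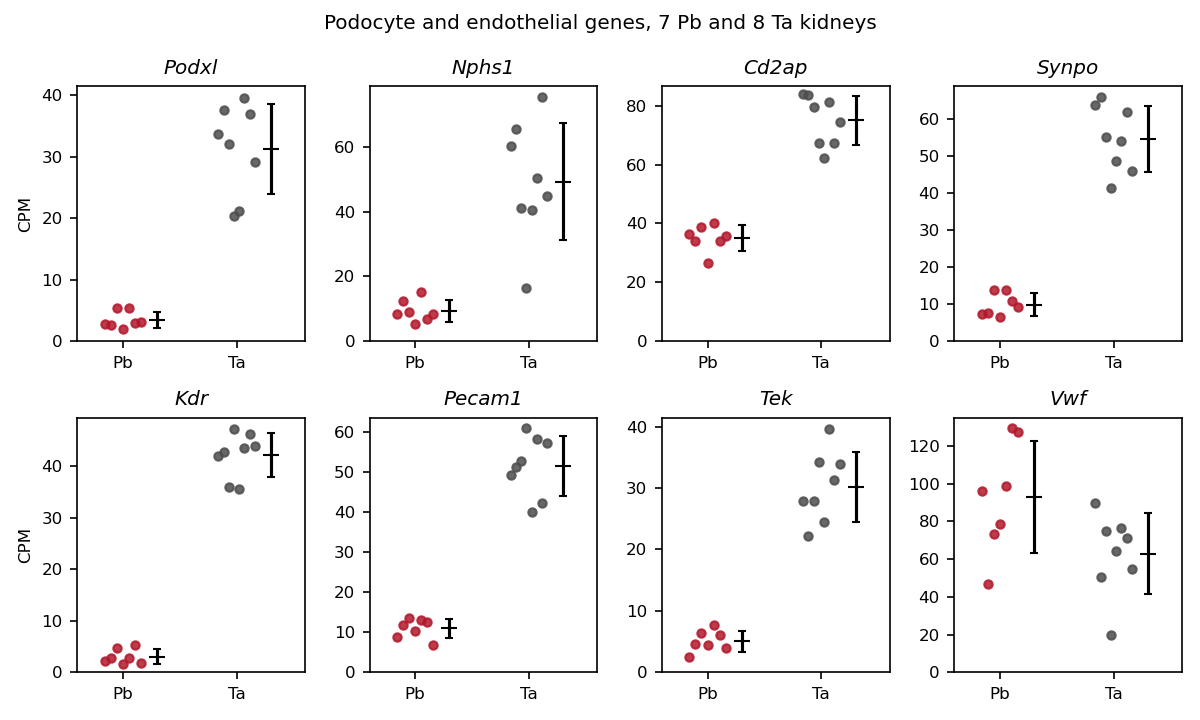
Levels (CPM, linear axes from 0) of 4 podocyte genes (top row) and 4 endothelial genes (bottom row) in 7 Pb kidneys (red, left) and 8 Ta kidneys (grey, right). Points are kidneys and bars give mean ± SD. In 7 panels all red points lie below all grey points, and in the Vwf panel the groups overlap.

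Genes of pericytes, smooth muscle and fibroblasts were lower in Pb kidneys for 12 of 13 members, with a median of -1.54. Rgs5, a marker of pericytes, had 1.25, 1.55 and 1.87 CPM in Pb kidneys, against 8.09, 12.3 and 17.8 CPM in Ta kidneys, so that the highest Pb kidney lay far under the lowest Ta kidney. On the log2 scale it changed by -3.06 ± 0.45 (SE, adjusted p = 1.95e-07). Acta2, the actin of smooth muscle, had 17.0, 21.5 and 31.1 CPM in Pb kidneys, against 60.0, 70.2 and 89.7 CPM in Ta kidneys, with a change of -1.65 ± 0.28 (SE, adjusted p = 3.21e-06). Pdgfrb, the platelet-derived growth factor receptor of these cells, was 6.36-fold lower (-2.67, adjusted p = 2.97e-05), and Notch3, a receptor of vascular smooth muscle, 2.61-fold lower (-1.38, adjusted p = 6.32e-07). With the balance as a covariate none of the 13 was called, and the median was -1.01.

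Matrix genes were called lower in 15 of 23 cases and higher in none, with a median of -1.63. Thbs1, which encodes thrombospondin, had 21.5, 26.0 and 47.8 CPM in Pb kidneys, against 64.2, 84.8 and 159.5 CPM in Ta kidneys, a change of -1.64 ± 0.29 (SE, adjusted p = 6.63e-06). It was also lower with the balance as a covariate (-1.68, adjusted p = 0.0331). Fbn1, the fibrillin of microfibrils, had 3.82, 5.23 and 7.62 CPM in Pb kidneys, against 14.6, 20.0 and 67.3 CPM in Ta kidneys (log2 fold change -2.37 ± 0.49 SE, adjusted p = 7.02e-05), and its call was lost with the cell make-up covariates (-0.94, adjusted p = 0.0588). Bgn, the proteoglycan biglycan, had 25.9, 31.7 and 39.7 CPM in Pb kidneys, against 56.4, 83.6 and 224 CPM in Ta kidneys (log2 fold change -1.62 ± 0.32 SE, adjusted p = 3.21e-05), and Col5a1, a collagen chain, was 3.38-fold lower (-1.76, adjusted p = 1.02e-04). The groups did not overlap in these 4 genes, and Ta replicate 4 was the highest Ta kidney in each. Without Ta replicates 4, 5 and 6 the list had 10 members lower and a median of -0.91, a smaller change in Pb. Once the balance was a covariate, 3 of 23 were lower, and with those of cell make-up 5 were lower.

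In the proximal tubule the transporters of the first segments, S1 and S2, were lower in Pb kidneys for 10 of 15 genes, with a median of -1.15. The lowest among them was Slc4a4, the bicarbonate exit of the basal membrane, with 3.56, 8.61 and 23.1 CPM in Pb kidneys, against 52.0, 83.7 and 159 CPM in Ta kidneys (log2 fold change -2.98 ± 0.67 SE, adjusted p = 2.14e-04). Slc22a8, an importer of organic anions from blood, had 37.8, 101.5 and 126.8 CPM in Pb kidneys, against 350.2, 488 and 586 CPM in Ta kidneys, with a change of -2.42 ± 0.53 (SE, adjusted p = 1.34e-04). Neither gene overlapped between the groups. Slc13a3, a dicarboxylate carrier, had 51.4, 129.7 and 169.6 CPM in Pb kidneys, against 378, 486 and 567 CPM in Ta kidneys (log2 fold change -1.98 ± 0.34 SE, adjusted p = 4.44e-06). Slc7a8, an amino acid exchanger, was 6.07-fold lower (-2.60, adjusted p = 8.05e-05), and Slc34a3, one of the sodium phosphate carriers, 5.92-fold lower (-2.57, adjusted p = 0.00209). With the cell make-up covariates, one of which is the mean of this list, the Slc34a3 call was lost and its sign turned (0.094, adjusted p = 0.768).

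Other genes of the same segments were not called. Slc34a1, the main sodium phosphate carrier, had 1896, 2239 and 2734 CPM in Pb kidneys, against 2346, 3001 and 3239 CPM in Ta kidneys, with a log2 fold change of -0.35 ± 0.33 (SE, adjusted p = 0.383). Miox, which breaks down inositol, had 3828, 4911 and 5761 CPM in Pb kidneys, against 1934, 3361 and 4036 CPM in Ta kidneys (log2 fold change 0.61 ± 0.31 SE, adjusted p = 0.0981). For Miox 6 of 7 Pb kidneys lay above all Ta kidneys, and in a fit to Pb and Ta libraries alone both Miox (higher) and Slc34a1 (lower) passed the threshold. With the covariates of cell make-up 4 of the 15 segment genes were lower and 2 higher, and with the balance covariate none was called.

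Genes of the last proximal segment, S3, moved both ways, with 4 of 10 higher, 3 lower and a median of 0.24. Ggt1, the brush border enzyme that cleaves glutathione, had 4021, 4833 and 5671 CPM in Pb kidneys, against 1189, 2363 and 3059 CPM in Ta kidneys. On the log2 scale it changed by 1.13 ± 0.23 (SE, adjusted p = 4.33e-05), and every Pb kidney was above every Ta kidney. Agt, which encodes angiotensinogen, had 193, 236 and 284 CPM in Pb kidneys, against 41.7, 120.5 and 137.4 CPM in Ta kidneys, with a change of 1.13 ± 0.24 (SE, adjusted p = 9.43e-05) and again no overlap. Slc5a10, a carrier of mannose and fructose, was 1.76-fold higher (0.82, adjusted p = 4.12e-04). Lower in Pb were Slc5a8, a carrier of lactate and short fatty acids, 2.93-fold (-1.55, adjusted p = 1.05e-04), and Atp11a, a membrane lipid flippase, 1.92-fold (-0.94, adjusted p = 2.27e-05). No S3 gene was called with the balance as a covariate.

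Reabsorption genes differed in level of change from gene to gene. Slc15a1, the peptide carrier PEPT1, had 0, 0.653 and 1.54 CPM in Pb kidneys, against 5.08, 7.63 and 12.4 CPM in Ta kidneys, and 1 Pb library held no read of it. Its fitted change was -3.52 ± 0.88 (SE, adjusted p = 7.20e-04). Slc6a19, the carrier of neutral amino acids, had 3.26, 5.997 and 9.19 CPM in Pb kidneys, against 27.8, 41.4 and 64.9 CPM in Ta kidneys (log2 fold change -2.82 ± 0.65 SE, adjusted p = 2.79e-04). Both calls were lost with the cell make-up covariates (-0.76, adjusted p = 0.269 for Slc15a1 and -0.33, adjusted p = 0.123 for Slc6a19). Of 15 genes for glucose, amino acids and peptides 6 were lower and 2 higher, and without Ta replicates 4, 5 and 6 the counts were 5 lower and 0 higher, and once the balance was a covariate none was called. Among 12 genes of protein uptake 6 were lower and 2 higher. Clcn5, the chloride exchanger of endosomes, had 1.09, 1.66 and 2.62 CPM in Pb kidneys, against 8.09, 11.3 and 19.3 CPM in Ta kidneys (log2 fold change -2.76 ± 0.39 SE, adjusted p = 7.71e-08). Lrp2, the receptor megalin, had 785, 1158 and 1365 CPM in Pb kidneys, against 1207, 1811 and 2739 CPM in Ta kidneys (log2 fold change -0.79 ± 0.23 SE, adjusted p = 0.00325), so that the groups overlapped, and Cubn, its partner cubilin, changed by -0.29 ± 0.12 (SE, adjusted p = 0.0426), a call lost when any 1 of 12 libraries was left out. The cell make-up covariates ended the calls of both Lrp2 (-0.47, adjusted p = 0.0742) and Cubn (-0.24, adjusted p = 0.149). Both genes belong to the S1 and S2 list, whose mean is one of these covariates. Amn, which brings cubilin to the surface, was higher in Pb, with 328, 382 and 424 CPM in Pb kidneys, against 189, 214 and 244 CPM in Ta kidneys (log2 fold change 0.81 ± 0.16 SE, adjusted p = 2.61e-05). Its call also held with the balance as a covariate (0.99, adjusted p = 0.0331), in a fit that left 1 protein uptake gene higher and 1 lower.

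Among genes of acid handling and glucose output, Slc9a3, the sodium hydrogen exchanger NHE3, had 9.40, 20.4 and 25.9 CPM in Pb kidneys, against 44.0, 66.6 and 95.1 CPM in Ta kidneys (log2 fold change -1.87 ± 0.36 SE, adjusted p = 2.28e-05). Pck1, the key enzyme of gluconeogenesis, had 638, 914 and 1019 CPM in Pb kidneys, against 1403, 1861 and 2369 CPM in Ta kidneys (log2 fold change -1.11 ± 0.35 SE, adjusted p = 0.00687), and G6pc1, which releases glucose, was 3.94-fold lower (-1.98, adjusted p = 4.83e-04). All Pb kidneys lay below all Ta kidneys in these 3 genes. The calls of Pck1 (-0.21, adjusted p = 0.634) and G6pc1 (-0.31, adjusted p = 0.29) were lost with the cell make-up covariates, and with the balance as a covariate none of the 3 was called. Of 16 organic ion and urate transporters 5 were lower and 4 higher, close to the 29.2% and 24.5% over all genes, and with the balance covariate none was called. Slc22a12, the urate exchanger, was among the higher ones, with 1129, 1422 and 1641 CPM in Pb kidneys, against 411, 808 and 988 CPM in Ta kidneys (log2 fold change 0.86 ± 0.19 SE, adjusted p = 2.13e-04), and so was Slc17a1, a phosphate and urate carrier (0.55, adjusted p = 2.28e-04). Abcc4, an efflux pump, was 2.12-fold lower (-1.09, adjusted p = 2.29e-06).

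The kidney activates vitamin D and keeps calcium and phosphate in balance, and 14 of 20 genes of this group were lower in Pb, with 2 higher and a median of -0.90. Vdr, the vitamin D receptor, had 8.17, 13.5 and 22.0 CPM in Pb kidneys, against 41.2, 50.8 and 59.8 CPM in Ta kidneys, a 3.60-fold lower level with no overlap (log2 fold change -1.85 ± 0.27 SE, adjusted p = 1.23e-07). Kl, which encodes klotho, the co-receptor of the phosphate hormone FGF23, had 21.9, 30.0 and 61.4 CPM in Pb kidneys, against 109, 175 and 217 CPM in Ta kidneys (log2 fold change -2.18 ± 0.36 SE, adjusted p = 2.25e-06). Atp2b1, the widely expressed calcium pump, had 29.3, 32.0 and 40.9 CPM in Pb kidneys, against 50.3, 58.4 and 67.4 CPM in Ta kidneys (log2 fold change -0.82 ± 0.10 SE, adjusted p = 2.95e-09), a small change with a small error. Atp2b4, another calcium pump, was 5.27-fold lower (-2.40, adjusted p = 2.46e-06), and Casr, the calcium-sensing receptor, 3.46-fold lower (-1.79, adjusted p = 2.63e-05).

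The enzymes that make and break down active vitamin D were both lower. Cyp24a1, which degrades it, had 36.2, 54.1 and 106 CPM in Pb kidneys, against 67.5, 97.7 and 195 CPM in Ta kidneys (log2 fold change -0.90 ± 0.29 SE, adjusted p = 0.00704), with overlapping groups, and its call was lost with the cell make-up covariates (-0.48, adjusted p = 0.213). Cyp27b1, which makes it, was near the limit of detection, with 0, 0.251 and 0.776 CPM in Pb kidneys, against 0.541, 1.30 and 11.0 CPM in Ta kidneys (log2 fold change -2.81 ± 0.88 SE, adjusted p = 0.00655), and its call was lost without Ta replicate 4 (adjusted p = 0.0626), without Ta replicates 4, 5 and 6, and with the cell make-up covariates (-0.30, adjusted p = 0.782). Pth1r, the parathyroid hormone receptor, was higher in Pb (0.49, adjusted p = 0.0302), a call lost without Pb replicate 4 (adjusted p = 0.0607) and without Ta replicates 4, 5 and 6. S100g, the small calcium-binding calbindin of the distal tubule, was higher too, but low in both groups, at 3.89 ± 1.90 CPM in Pb kidneys and 1.94 ± 0.752 CPM in Ta kidneys (log2 fold change 1.00 ± 0.32 SE, adjusted p = 0.00743). In the fit with the balance covariate 2 of the 20 genes were lower and none higher.

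**Figure D2:**
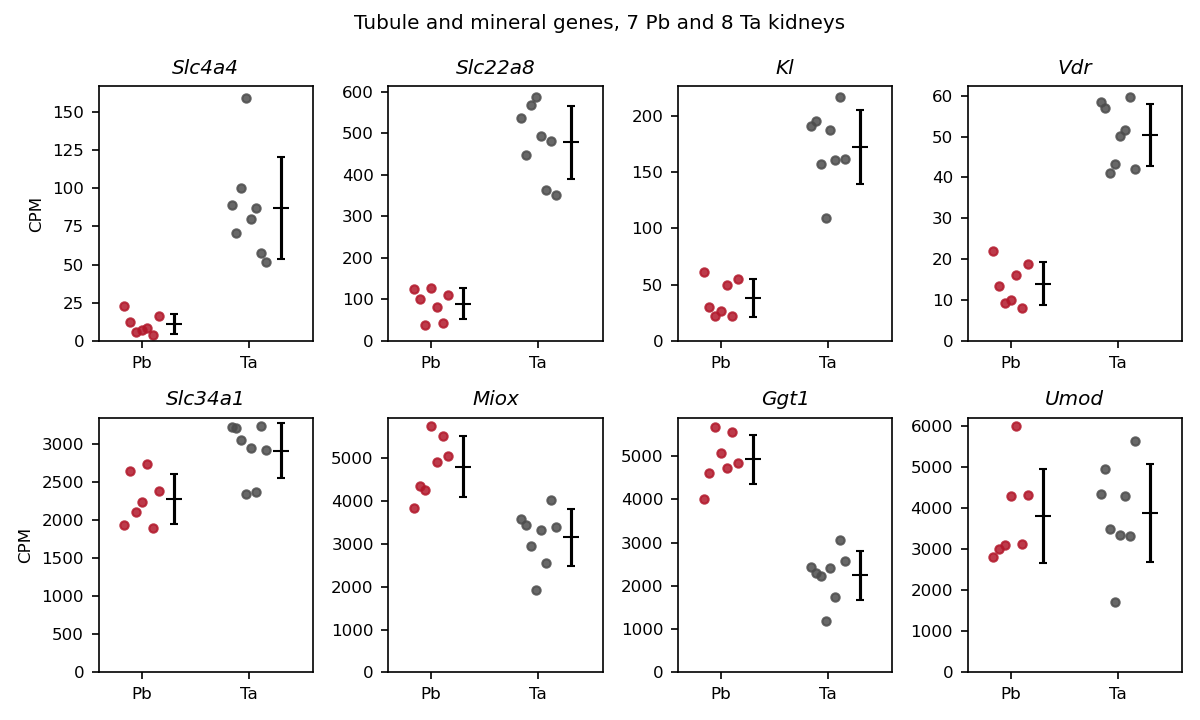
Levels (CPM, linear axes from 0) of 8 genes of tubule transport and mineral balance in 7 Pb kidneys (red, left) and 8 Ta kidneys (grey, right), as points per kidney with mean ± SD. The top row shows 4 genes lower in Pb without overlap. In the bottom row Ggt1 is higher in Pb, and Slc34a1, Miox and Umod were not called.

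Of 9 genes of the distal convoluted and connecting tubule 6 were lower and none higher, with a median of -1.17. Slc12a3, the sodium chloride carrier that thiazides block, had 45.3, 211 and 630.5 CPM in Pb kidneys, against 553, 1018 and 1772 CPM in Ta kidneys (log2 fold change -1.99 ± 0.48 SE, adjusted p = 4.94e-04), where the highest Pb kidney lay within the Ta range, and the call was lost with the cell make-up covariates (-0.84, adjusted p = 0.0532). Wnk1, a kinase upstream of that carrier, had 70.8, 112 and 209 CPM in Pb kidneys, against 244, 395 and 532 CPM in Ta kidneys (log2 fold change -1.68 ± 0.27 SE, adjusted p = 1.35e-06). Trpm7, a magnesium and calcium channel with a kinase domain, was 2.25-fold lower (-1.17, adjusted p = 2.67e-10). In the thick ascending limb 4 of 10 genes were lower and 2 higher. Egf, the epidermal growth factor precursor, had 185, 293 and 562 CPM in Pb kidneys, against 385, 1210.4 and 1671 CPM in Ta kidneys (log2 fold change -1.76 ± 0.44 SE, adjusted p = 7.75e-04). Slc12a1, the carrier that loop diuretics block, was 2.09-fold lower (-1.06, adjusted p = 9.70e-04), and the tight junction gene Cldn10 was 1.54-fold higher (0.63, adjusted p = 5.79e-04), a call lost with these covariates too (0.27, adjusted p = 0.0993). Umod, which encodes uromodulin, an abundant protein of normal urine, had 2811, 3130.3 and 6001 CPM in Pb kidneys, against 1716, 3900.0 and 5631 CPM in Ta kidneys (log2 fold change -0.029 ± 0.28 SE, adjusted p = 0.94), so that no difference was detectable against that spread.

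Of 11 principal cell genes of the collecting duct 3 were higher and 3 lower, shares close to the 24.5% and 29.2% over all genes. Aqp2, the water channel set by vasopressin, had 525, 690.3 and 904 CPM in Pb kidneys, against 324, 379 and 519 CPM in Ta kidneys (log2 fold change 0.74 ± 0.25 SE, adjusted p = 0.0111), and all Pb kidneys were above all Ta kidneys. This call was lost without Ta replicates 4, 5 and 6. Fxyd4, a regulator of the sodium pump, was 2.42-fold higher (1.28, adjusted p = 1.46e-04), while Scnn1g, a subunit of the epithelial sodium channel, was 1.43-fold lower (-0.52, adjusted p = 0.00139). In intercalated cells, which secrete acid or base, Atp6v1g3, a proton pump subunit, was 1.92-fold higher (0.94, adjusted p = 1.03e-04) and Kit, a growth factor receptor, 2.59-fold lower (-1.37, adjusted p = 9.77e-07). The angiotensin receptor gene Agtr1a was 4.60-fold lower (-2.20, adjusted p = 4.21e-06), beside the higher Agt given above. No gene of the distal segments or the collecting duct, and neither Agt nor Agtr1a, was called with the balance as a covariate.

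**Figure D3:**
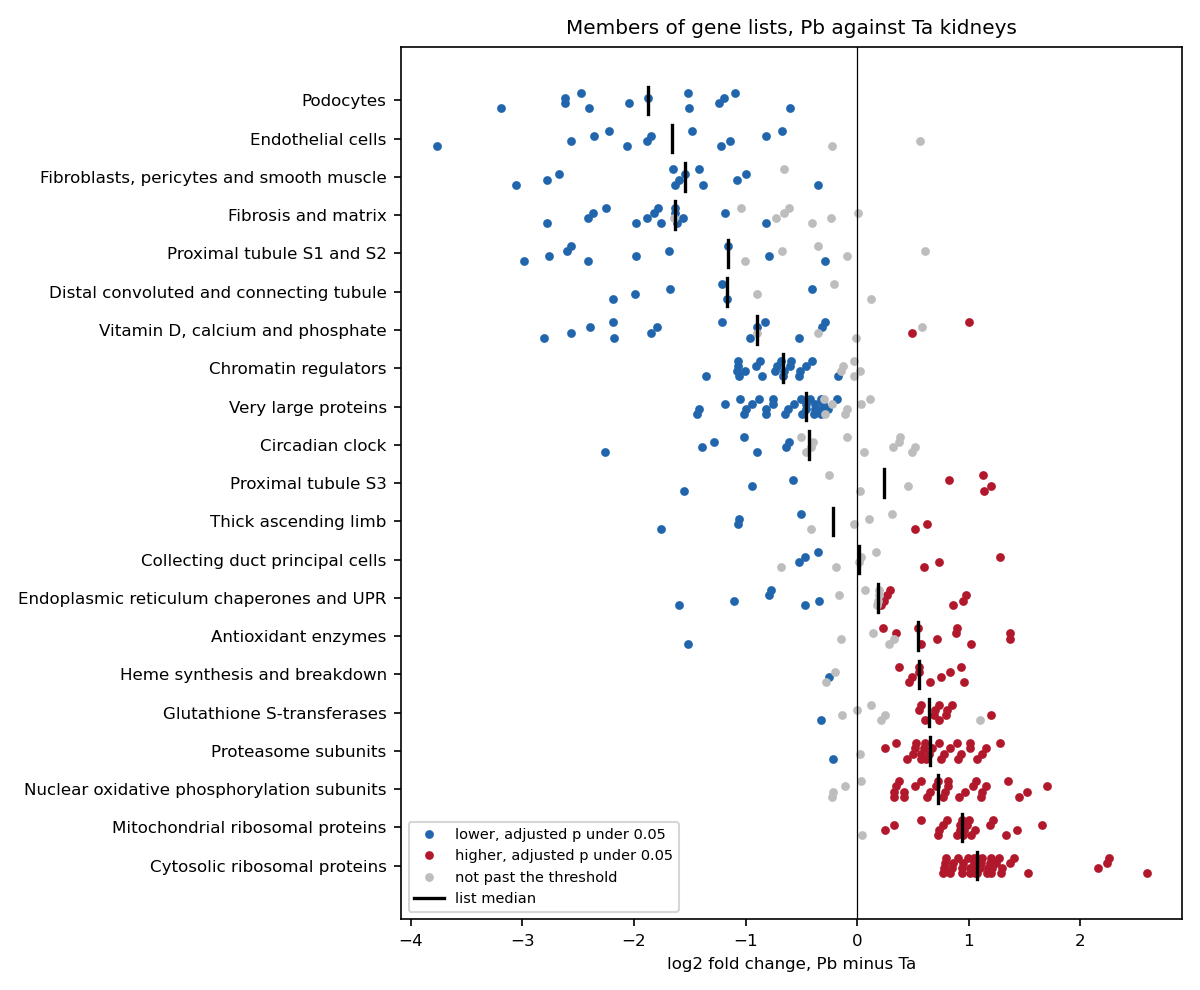
Log2 fold changes, Pb minus Ta (x axis), of the tested members of 21 gene lists (rows). Blue points are genes called lower, red points genes called higher, grey points genes not past the threshold, and black bars mark list medians. Podocyte, vascular and matrix lists lie left of 0, with medians from -1.88 to -1.54, and ribosomal protein lists right of 0, with medians of 0.94 and 1.07.

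Metal-binding and metal-responsive genes were read next. The promoters of 3 metallothionein genes and of Gstp1 are shown because these are the genes through which metal and oxidant responses are usually read. Each runs from 250 bases before to 50 after the annotated start, taken from RefSeq on the GRCr8 build, which is not the build of the counts, and all 4 lie on the minus strand. Capitals mark matches, on either strand, to 1 motif in each promoter: in the metallothionein genes the core of the metal response element, TGCACNC or TGCGCNC, and in Gstp1 the antioxidant response element, TGACNNNGC. The genes and motifs were picked with their values known.
Mt1, chr19:10832926-10833225: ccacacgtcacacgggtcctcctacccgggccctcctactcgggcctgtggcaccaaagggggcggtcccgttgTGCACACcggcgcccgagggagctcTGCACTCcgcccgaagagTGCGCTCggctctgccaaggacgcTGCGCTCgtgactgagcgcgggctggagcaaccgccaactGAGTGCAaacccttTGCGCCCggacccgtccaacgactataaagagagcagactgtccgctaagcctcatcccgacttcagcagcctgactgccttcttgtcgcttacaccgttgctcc
Mt2A, chr19:10838659-10838958: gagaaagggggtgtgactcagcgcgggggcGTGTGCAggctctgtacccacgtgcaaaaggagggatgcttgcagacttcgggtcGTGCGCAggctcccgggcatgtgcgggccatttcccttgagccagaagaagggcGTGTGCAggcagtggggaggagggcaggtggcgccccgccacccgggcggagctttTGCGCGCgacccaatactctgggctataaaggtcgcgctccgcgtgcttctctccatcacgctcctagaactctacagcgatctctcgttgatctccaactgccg
Mt3, chr19:10856031-10856330: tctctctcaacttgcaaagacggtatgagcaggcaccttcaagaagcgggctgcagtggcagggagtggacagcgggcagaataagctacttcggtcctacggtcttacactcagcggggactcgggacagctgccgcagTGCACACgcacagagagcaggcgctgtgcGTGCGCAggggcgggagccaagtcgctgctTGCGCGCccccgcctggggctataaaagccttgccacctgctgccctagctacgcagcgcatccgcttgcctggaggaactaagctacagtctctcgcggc
Gstp1, chr1:210769656-210769955: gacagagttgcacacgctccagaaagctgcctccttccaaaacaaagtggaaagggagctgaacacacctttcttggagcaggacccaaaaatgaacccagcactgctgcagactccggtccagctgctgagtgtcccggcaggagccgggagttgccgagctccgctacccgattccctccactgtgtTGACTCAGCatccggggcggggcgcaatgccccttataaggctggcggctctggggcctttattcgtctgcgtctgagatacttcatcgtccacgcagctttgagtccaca
The metal response core occurred 6 times in the Mt1 promoter, 4 times in that of Mt2A, 3 times in that of Mt3 and, not capitalised, 2 times in that of Gstp1. Of 33469 rat promoters of 300 bases, 24.2% held at least 1 match and 0.439% at least 4. The antioxidant element occurred 1 time in the Gstp1 promoter and, not capitalised, 1 time each in those of Mt1 and Mt2A, and 12.1% of promoters held at least 1. A match describes the letters of the window and does not show that a factor binds there.

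Of the 3 metallothionein genes 2 were higher in Pb. Mt1, whose promoter held most matches, had 184, 299.8 and 663 CPM in Pb kidneys, against 274, 375 and 486 CPM in Ta kidneys (log2 fold change -0.017 ± 0.33 SE, adjusted p = 0.969), with Pb values on both sides of the Ta range. With the cell make-up covariates Mt1 was called higher in Pb (0.63, adjusted p = 0.0327). Mt2A had 426, 752 and 1502 CPM in Pb kidneys, against 328, 477 and 609 CPM in Ta kidneys, and 6 of 7 Pb kidneys lay above all Ta kidneys. On the log2 scale it changed by 0.92 ± 0.34 (SE, adjusted p = 0.0213), a call lost without Pb replicate 4, the highest library (adjusted p = 0.0769). Mt3, best known from brain, was low in both groups, with 0.453, 2.10 and 3.87 CPM in Pb kidneys, against 0, 0.205 and 0.779 CPM in Ta kidneys (log2 fold change 2.94 ± 0.76 SE, adjusted p = 0.00114). Transcripts of near-identical metallothionein copies may share reads. Mtf1, the transcription factor that binds metal response elements, was 1.58-fold lower in Pb (-0.66, adjusted p = 3.62e-04).

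The list of metallothioneins, zinc transporters and Mtf1 had 6 of 13 members lower and 3 higher. Slc30a2, which moves zinc into vesicles, had 1.54, 3.08 and 3.71 CPM in Pb kidneys, against 6.25, 10.3 and 17.4 CPM in Ta kidneys (log2 fold change -1.94 ± 0.44 SE, adjusted p = 2.19e-04), a call lost with the cell make-up covariates (-0.46, adjusted p = 0.218), and Slc39a10, a zinc importer, had 3.68, 5.01 and 6.33 CPM in Pb kidneys, against 10.1, 14.1 and 20.0 CPM in Ta kidneys (log2 fold change -1.50 ± 0.23 SE, adjusted p = 5.05e-07). Slc30a1, the zinc exporter of the surface membrane, had 28.6, 34.7 and 44.5 CPM in Pb kidneys, against 28.4, 58.1 and 83.5 CPM in Ta kidneys (log2 fold change -0.65 ± 0.21 SE, adjusted p = 0.00819), and here all Pb values fell inside the wide Ta range. None of the 13 genes was called with the balance as a covariate.

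Heme synthesis genes were higher in Pb kidneys. Of 13 genes of heme synthesis and breakdown 10 were higher and 1 lower, with a median of 0.55, against 24.5% of all genes higher. Alad, the gene of the enzyme that lead inhibits, had 122.96, 133 and 158 CPM in Pb kidneys, against 75.5, 92.0 and 126.4 CPM in Ta kidneys. The change was 0.55 ± 0.13 (SE, adjusted p = 4.09e-04), with 5 of 7 Pb kidneys above all Ta kidneys. Urod, a later step of the pathway, had 103.9, 120.1 and 139.96 CPM in Pb kidneys, against 60.6, 69.6 and 85.6 CPM in Ta kidneys (log2 fold change 0.75 ± 0.089 SE, adjusted p = 1.99e-09), and Cpox, the step after that, 58.6, 98.2 and 120.4 CPM in Pb kidneys, against 46.0, 51.3 and 68.0 CPM in Ta kidneys (log2 fold change 0.83 ± 0.15 SE, adjusted p = 4.68e-06). Ppox, the last oxidase, was 1.58-fold higher (0.66, adjusted p = 6.73e-06), and its call held with the balance as a covariate (0.69, adjusted p = 0.0444).

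Other members of the heme list had smaller changes. Alas1, the first and rate-limiting enzyme in most tissues, was 1.29-fold higher (0.37, adjusted p = 0.0132), a call lost without Ta replicates 4, 5 and 6, at 0.31 (adjusted p = 0.0601), and with the cell make-up covariates (0.094, adjusted p = 0.596). Fech, which inserts iron and is also a known target of lead, was 1.19-fold lower (-0.25, adjusted p = 0.0336), a call lost when any 1 of 8 libraries was left out, by DESeq2 and with the cell make-up covariates (-0.22, adjusted p = 0.133). Blvrb, a biliverdin reductase at the end of heme breakdown, had 36.5, 42.3 and 48.7 CPM in Pb kidneys, against 18.0, 22.1 and 24.5 CPM in Ta kidneys (log2 fold change 0.96 ± 0.12 SE, adjusted p = 4.38e-09), without overlap. Hmox1, the inducible heme oxygenase, had 2.83, 6.597 and 9.44 CPM in Pb kidneys, against 1.93, 5.30 and 17.4 CPM in Ta kidneys (log2 fold change -0.20 ± 0.53 SE, adjusted p = 0.77), while the constitutive Hmox2 was 1.47-fold higher (0.55, adjusted p = 9.40e-06). Once the balance was a covariate, 2 of 13 genes of this list were higher and the median was 0.54.

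Among iron genes, Fth1, the ferritin heavy chain that stores iron, had 4709, 5272 and 6876 CPM in Pb kidneys, against 2518, 2869.6 and 3324 CPM in Ta kidneys (log2 fold change 0.94 ± 0.14 SE, adjusted p = 3.99e-07), with no overlap. Tfrc, the transferrin receptor that brings iron into cells, had 6.10, 9.99 and 13.4 CPM in Pb kidneys, against 15.8, 29.1 and 41.0 CPM in Ta kidneys, the opposite direction (log2 fold change -1.49 ± 0.26 SE, adjusted p = 5.63e-06). Ireb2, an RNA-binding regulator of these transcripts, was 2.13-fold lower (-1.09, adjusted p = 1.22e-08), and Ncoa4, which sends ferritin to lysosomes, 1.79-fold lower (-0.84, adjusted p = 6.20e-06). Over the list 2 of 13 genes were higher and 7 lower, against 24.5% and 29.2% of all genes. With the balance as a covariate none was higher and 1 lower, and the signs of Fth1 (-0.013, adjusted p = 0.977) and Tfrc (0.14, adjusted p = 0.85) were turned.

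Glutathione S-transferases conjugate foreign compounds to glutathione, and 11 of 18 were higher in Pb, with 1 lower and a median of 0.64. Gstp1 had 877, 1066 and 1676 CPM in Pb kidneys, against 360.4, 508 and 696 CPM in Ta kidneys, a 2.30-fold higher level in Pb without overlap (log2 fold change 1.20 ± 0.18 SE, adjusted p = 3.63e-07). Gstt2 had 169, 199 and 237 CPM in Pb kidneys, against 78.4, 120.0 and 133 CPM in Ta kidneys (log2 fold change 0.80 ± 0.14 SE, adjusted p = 7.44e-06), and it was also higher with the balance as a covariate (0.94, adjusted p = 0.0292), the sole gene of the list called in that fit. Gstk1, a mitochondrial and peroxisomal member, was 1.81-fold higher (0.85, adjusted p = 1.07e-05). Members of the alpha and mu classes are near-identical in parts, so their single values are uncertain. Gss, the second enzyme of glutathione synthesis, had 1019, 1230.0 and 1555 CPM in Pb kidneys, against 297, 674 and 873 CPM in Ta kidneys (log2 fold change 0.97 ± 0.24 SE, adjusted p = 7.35e-04).

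Antioxidant enzyme genes were higher in 10 of 15 cases and lower in 1, with a median of 0.54. Sod1, the cytosolic superoxide dismutase, had 1077, 1271 and 1437 CPM in Pb kidneys, against 349, 517 and 563 CPM in Ta kidneys (log2 fold change 1.37 ± 0.14 SE, adjusted p = 1.15e-10). Txn1, thioredoxin, had 488, 569.9 and 772 CPM in Pb kidneys, against 179.5, 230.4 and 257 CPM in Ta kidneys (log2 fold change 1.37 ± 0.13 SE, adjusted p = 3.77e-12), and Prdx1, a peroxiredoxin that it serves, 801, 879.6 and 1102 CPM in Pb kidneys, against 433, 477 and 551 CPM in Ta kidneys (log2 fold change 0.90 ± 0.11 SE, adjusted p = 1.09e-08). The 3 genes showed no overlap, and Sod1 and Txn1 were called with the balance as a covariate too (1.09, adjusted p = 0.0112 for Sod1 and 0.57, adjusted p = 0.0413 for Txn1). Of 15 typical targets of the factor NRF2 and genes of glutathione synthesis 3 were higher and 2 lower, with a median of 0.00, both shares under those of all genes. Nqo1, a quinone reductase often used to read NRF2 activity, had 5.65, 8.53 and 16.01 CPM in Pb kidneys, against 7.34, 10.1 and 12.03 CPM in Ta kidneys (log2 fold change 0.0026 ± 0.23 SE, adjusted p = 0.994). Osgin1, a growth inhibitor in the same list, was 2.11-fold higher (1.08, adjusted p = 0.00256), a call lost with the cell make-up covariates (0.62, adjusted p = 0.0537), and Txnrd1, the reductase of thioredoxin, 1.48-fold lower (-0.56, adjusted p = 9.31e-04). In the fit with the balance covariate 1 of these 15 genes was lower and none higher.

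**Figure D4:**
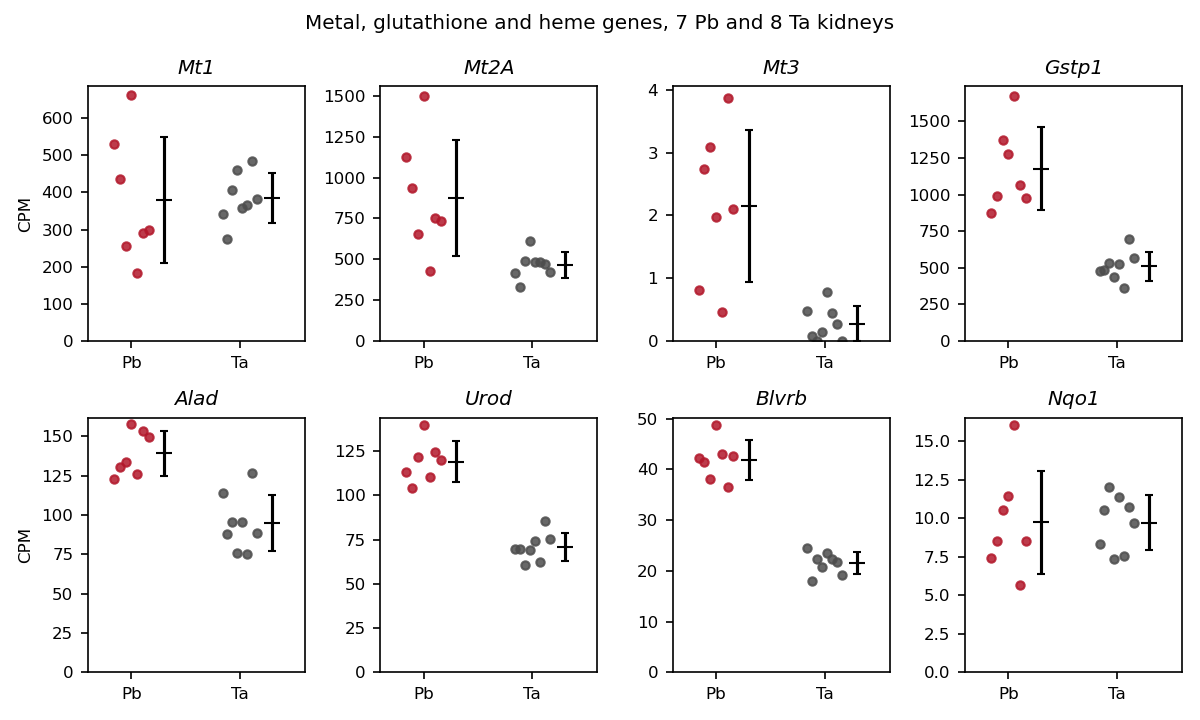
Levels (CPM, linear axes from 0) of metallothionein, glutathione and heme genes in 7 Pb kidneys (red, left) and 8 Ta kidneys (grey, right), as points per kidney with mean ± SD. Gstp1, Urod and Blvrb are higher in every Pb kidney than in any Ta kidney, Mt1 and Nqo1 overlap between the groups, and Mt3 reaches 3.87 CPM in Pb kidneys.

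Stress genes gave a mixed picture. Of 15 cytosolic heat shock genes 7 were higher and 4 lower. Ahsa1, which activates HSP90, had 128.1, 139.9 and 165 CPM in Pb kidneys, against 78.7, 87.6 and 93.7 CPM in Ta kidneys (log2 fold change 0.70 ± 0.086 SE, adjusted p = 4.10e-09), and Cryab, a small heat shock protein, was 2.20-fold higher (1.14, adjusted p = 3.28e-04), a call lost with the cell make-up covariates (0.42, adjusted p = 0.111). Hspa4, a partner of HSP70, was 1.31-fold lower (-0.39, adjusted p = 4.50e-06). Once the balance was a covariate, 1 heat shock gene was lower and none higher. Among 10 mitochondrial chaperones 5 were higher and 1 lower, and the co-chaperonin gene Hspe1 had the widest difference, with 384, 437 and 595 CPM in Pb kidneys, against 119, 160.5 and 185 CPM in Ta kidneys (log2 fold change 1.55 ± 0.15 SE, adjusted p = 2.03e-11). It was also called with the balance as a covariate (1.07, adjusted p = 0.0166), as 1 of 2 chaperones of its list that were higher there.

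Of 19 genes of the endoplasmic reticulum 7 were higher and 6 lower. Creld2, a small secreted chaperone, had 49.8, 70.0 and 83.95 CPM in Pb kidneys, against 31.7, 33.6 and 47.7 CPM in Ta kidneys (log2 fold change 0.98 ± 0.13 SE, adjusted p = 2.26e-08), and Manf, a stress-induced neurotrophic factor, was 1.81-fold higher (0.86, adjusted p = 5.42e-07). Sel1l, the scaffold of the degradation complex, had 8.60, 14.1 and 17.7 CPM in Pb kidneys, against 35.3, 42.0 and 47.4 CPM in Ta kidneys (log2 fold change -1.60 ± 0.17 SE, adjusted p = 2.56e-10), and Canx, a lectin chaperone of the membrane, 191, 229 and 259.8 CPM in Pb kidneys, against 345, 398 and 479.6 CPM in Ta kidneys (log2 fold change -0.79 ± 0.093 SE, adjusted p = 1.42e-09). Hspa5, the main chaperone of the compartment, had 509.7, 554 and 565 CPM in Pb kidneys, against 438, 476 and 501 CPM in Ta kidneys. Every Pb value was above every Ta value, and the change was not called (log2 fold change 0.20 ± 0.10 SE, adjusted p = 0.0801) but passed the threshold by DESeq2 and by limma voom. With the balance covariate 1 of the 19 genes was higher and none lower. In the integrated stress response 6 of 14 genes were higher and 3 lower. Its effector Atf4 had 197, 253 and 301 CPM in Pb kidneys, against 119.6, 143.9 and 149 CPM in Ta kidneys (log2 fold change 0.89 ± 0.17 SE, adjusted p = 1.70e-05), and its target Ddit3, a factor of cell death, 36.1, 43.2 and 52.4 CPM in Pb kidneys, against 19.5, 22.8 and 30.6 CPM in Ta kidneys (log2 fold change 0.89 ± 0.14 SE, adjusted p = 5.82e-07). None of the 14 was called with the balance as a covariate.

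Genes of ribosomes, respiratory chain and proteasome were higher in Pb kidneys for most members tested. All 41 cytosolic ribosomal protein genes tested were higher in Pb without overlap between the groups, against 13.0% of all tested genes. The list had a median log2 fold change of 1.07 and a range of 0.76 to 2.59. The balance described above uses this list, so its position beyond Ta is the same measurement. Rpl38, a protein of the large subunit, had 214, 293 and 525 CPM in Pb kidneys, against 42.4, 49.2 and 73.5 CPM in Ta kidneys, the highest fold change of the list (log2 fold change 2.59 ± 0.20 SE, adjusted p = 4.69e-14). Rps28, of the small subunit, had 168, 235 and 419.8 CPM in Pb kidneys, against 35.5, 46.6 and 52.97 CPM in Ta kidneys (log2 fold change 2.49 ± 0.18 SE, adjusted p = 1.04e-14), and Rpl27 429.6, 472 and 659 CPM in Pb kidneys, against 186, 218 and 257 CPM in Ta kidneys (log2 fold change 1.17 ± 0.10 SE, adjusted p = 2.42e-13). Ribosomal protein genes have many near-identical copies in the genome, and how reads with several matches were counted is not given in the sources used here. In the fit with the balance covariate 5 of 41 were called, all higher, among them Rpl38 (1.15, adjusted p = 0.0032) and Rps28 (1.12, adjusted p = 0.00106).

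Mitochondrial ribosomal proteins were higher for 22 of 23 genes, with a median of 0.94. Mrpl54 had 177, 207 and 232 CPM in Pb kidneys, against 51.5, 62.8 and 84.3 CPM in Ta kidneys (log2 fold change 1.65 ± 0.14 SE, adjusted p = 3.18e-13) and Mrpl52 108, 114 and 157 CPM in Pb kidneys, against 50.2, 54.6 and 56.5 CPM in Ta kidneys (log2 fold change 1.17 ± 0.081 SE, adjusted p = 2.34e-15). With the balance as a covariate, whose gene lists hold none of them, 13 of 23 were higher and the median was 0.58. Of 31 nuclear subunits of the respiratory chain and ATP synthase 27 were higher and none lower, with a median of 0.73. Ndufa1, an accessory subunit of complex I, had 135.2, 156 and 220.4 CPM in Pb kidneys, against 42.2, 53.2 and 56.1 CPM in Ta kidneys (log2 fold change 1.70 ± 0.12 SE, adjusted p = 1.32e-15), and Cox5b, a subunit of complex IV, 477, 543 and 678 CPM in Pb kidneys, against 139.5, 185 and 223 CPM in Ta kidneys (log2 fold change 1.52 ± 0.12 SE, adjusted p = 2.65e-14). These 2 genes showed no overlap. Other subunits, picked with their values known, had smaller changes, with -0.22 for Ndufs1, 0.034 for Sdha and 0.33 for Atp5f1a, of which Atp5f1a was called (adjusted p = 0.0199), a call lost without Ta replicates 4, 5 and 6, at 0.24 (adjusted p = 0.142). Once the balance was a covariate, 8 of 31 were higher.

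Mitochondrially encoded transcripts were higher for 10 of 13 genes, with a median of 0.40. ND3, a complex I subunit, had 2559.7, 3764 and 6437 CPM in Pb kidneys, against 862, 1037 and 1501 CPM in Ta kidneys (log2 fold change 1.85 ± 0.20 SE, adjusted p = 3.82e-10), and ATP6, a subunit of ATP synthase, 24417, 31363 and 37274 CPM in Pb kidneys, against 13780.4, 15478 and 25194 CPM in Ta kidneys (log2 fold change 0.84 ± 0.16 SE, adjusted p = 2.17e-05). Without Ta replicates 4, 5 and 6 the number higher was 5, and with the balance as a covariate 0. Proteasome subunits, which build the protease that degrades tagged proteins, were higher for 26 of 28 genes and lower for 1, with a median of 0.65. Psmb5, its chymotrypsin-like subunit, had 179, 204 and 264 CPM in Pb kidneys, against 85.8, 95.7 and 101.6 CPM in Ta kidneys (log2 fold change 1.16 ± 0.086 SE, adjusted p = 1.41e-14) and Psmb6 146, 156 and 210.3 CPM in Pb kidneys, against 58.6, 66.0 and 92.1 CPM in Ta kidneys (log2 fold change 1.28 ± 0.10 SE, adjusted p = 1.42e-13), both without overlap. In the fit with the balance covariate 4 of 28 were higher.

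At the other end of the range, 29 of 36 genes of very large proteins were lower in Pb and none higher, with a median of -0.46. Lrba, a scaffold of membrane traffic, had 36.9, 44.9 and 54.4 CPM in Pb kidneys, against 74.5, 99.7 and 132.4 CPM in Ta kidneys (log2 fold change -1.18 ± 0.15 SE, adjusted p = 1.21e-08). This list is one side of the balance, and with it as a covariate the direction was turned, with 3 genes higher and none lower. A separate list of chromatin regulators, which shares no gene with the balance although other chromatin genes stand in the very large protein list, was lower for 21 of 26 genes and higher for none, with a median of -0.66. Kdm5a, a histone demethylase, had 8.08, 13.1 and 14.4 CPM in Pb kidneys, against 22.0, 32.4 and 40.9 CPM in Ta kidneys (log2 fold change -1.36 ± 0.15 SE, adjusted p = 7.02e-10), Ep300, an acetyltransferase, 36.8, 52.8 and 59.8 CPM in Pb kidneys, against 69.7, 95.7 and 112 CPM in Ta kidneys (log2 fold change -0.87 ± 0.10 SE, adjusted p = 3.15e-10), and Ncor1, a corepressor, 85.5, 93.0 and 111 CPM in Pb kidneys, against 158, 177 and 204 CPM in Ta kidneys (log2 fold change -0.91 ± 0.10 SE, adjusted p = 4.50e-10). All 3 stood apart without overlap, and with the balance as a covariate none of the 26 was called.

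Genes of lipid metabolism and its regulators moved both ways. Ppargc1a, the coactivator of mitochondrial genes, had 7.93, 12.5 and 15.2 CPM in Pb kidneys, against 28.2, 37.6 and 52.1 CPM in Ta kidneys (log2 fold change -1.70 ± 0.23 SE, adjusted p = 4.31e-08). Cpt1a, the gate of fatty acid entry into mitochondria, had 27.3, 46.9 and 56.9 CPM in Pb kidneys, against 93.8, 109.7 and 153 CPM in Ta kidneys (log2 fold change -1.40 ± 0.19 SE, adjusted p = 5.91e-08). Etfb, an electron carrier of fatty acid oxidation, was higher (0.83, adjusted p = 1.72e-06), and over 20 genes of this pathway 7 were higher and 9 lower. In cholesterol synthesis 9 of 18 genes were lower and 4 higher. Srebf2, its regulator, was 1.52-fold lower (-0.60, adjusted p = 4.01e-06), and Pmvk, a small kinase of the pathway, 2.04-fold higher (1.03, adjusted p = 6.95e-07). With the balance as a covariate neither Ppargc1a (-0.13, adjusted p = 0.831) nor Cpt1a (-0.20, adjusted p = 0.676) was called. That fit left 1 fatty acid oxidation gene higher and none lower, and 1 cholesterol gene lower and none higher.

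Of 18 circadian genes 7 were lower and none higher, against 29.2% and 24.5% of all genes, with a median of -0.43. Clock had 2.45, 3.67 and 4.76 CPM in Pb kidneys, against 14.1, 17.5 and 22.8 CPM in Ta kidneys (log2 fold change -2.26 ± 0.29 SE, adjusted p = 1.22e-08), and Nr1d2 was 2.44-fold lower (-1.29, adjusted p = 3.06e-06). No circadian gene was called with the balance as a covariate, Clock (-0.11, adjusted p = 0.86) included. Epas1, the hypoxia factor HIF-2 alpha of endothelial and interstitial cells, had 24.3, 33.3 and 39.8 CPM in Pb kidneys, against 115, 131.5 and 168 CPM in Ta kidneys (log2 fold change -2.06 ± 0.28 SE, adjusted p = 3.71e-08), and Hif1a was 1.95-fold lower (-0.96, adjusted p = 6.19e-07). Of 12 genes around these factors 7 were lower and 2 higher, and with the balance covariate 1 was lower and 1 higher.

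Markers of tubular injury were higher in median (0.62), but few passed the threshold, 5 of 19 higher, close to the 24.5% of all genes, and 1 lower. Havcr1, the injury molecule KIM-1, had 29.6, 72.9 and 119 CPM in Pb kidneys, against 3.86, 20.5 and 97.5 CPM in Ta kidneys (log2 fold change 1.13 ± 0.75 SE, adjusted p = 0.209). Lcn2, the injury marker NGAL, had 28.8, 41.3 and 222 CPM in Pb kidneys, against 5.10, 13.4 and 124.8 CPM in Ta kidneys (log2 fold change 1.32 ± 0.97 SE, adjusted p = 0.256), and Spp1, osteopontin, 1751, 3826 and 9179 CPM in Pb kidneys, against 365, 1398 and 6824 CPM in Ta kidneys (log2 fold change 1.08 ± 0.61 SE, adjusted p = 0.134). All 7 Pb kidneys were above the Ta median for these 3 genes, with overlap at the top of the Ta range. By limma voom with sample quality weights all 3 were higher (1.90, adjusted p = 0.00225 for Havcr1, 1.85, adjusted p = 0.00994 for Lcn2 and 1.65, adjusted p = 0.00337 for Spp1). Without Ta replicates 4, 5 and 6 the changes were 2.40 (adjusted p = 0.0258) for Havcr1, 3.02 (adjusted p = 0.0349) for Lcn2 and 2.31 (adjusted p = 0.0059) for Spp1, and 9 of 19 genes were higher. Once the balance was a covariate, the signs of all 3 were turned, and 7 of 19 were lower. Tff3, a trefoil peptide, had 1520.2, 2386 and 2981 CPM in Pb kidneys, against 236, 669 and 1061 CPM in Ta kidneys, a 3.41-fold higher level with no overlap (log2 fold change 1.77 ± 0.29 SE, adjusted p = 1.34e-06). Clu (0.71, adjusted p = 0.245), Timp1 (0.62, adjusted p = 0.373) and Cdkn1a (-0.39, adjusted p = 0.191) were not called in the main fit. Clu was called higher by limma voom (0.95, adjusted p = 0.0138) and without Ta replicates 4, 5 and 6 (1.48, adjusted p = 0.0324). With the balance as a covariate Clu (-2.29, adjusted p = 0.0268), Timp1 (-2.68, adjusted p = 0.0267) and Lcn2 (-4.90, adjusted p = 0.0172) were called lower.

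Of 19 genes of the p53 pathway and apoptosis 2 were higher and 7 lower. Bax, which opens the outer mitochondrial membrane, had 66.7, 75.1 and 92.2 CPM in Pb kidneys, against 25.3, 33.4 and 42.0 CPM in Ta kidneys (log2 fold change 1.19 ± 0.12 SE, adjusted p = 1.52e-11), and Ccng1, a p53 target, was 1.55-fold lower (-0.63, adjusted p = 7.82e-06). Among 18 cell cycle genes 4 were higher and 2 lower, for example Birc5, an inhibitor of apoptosis made in mitosis, with 6.30, 8.29 and 11.0 CPM in Pb kidneys, against 0.889, 3.13 and 5.22 CPM in Ta kidneys (log2 fold change 1.43 ± 0.27 SE, adjusted p = 1.89e-05). Without Ta replicates 4, 5 and 6 the cell cycle counts were 7 higher and 1 lower. Once the balance was a covariate, no gene of either list was called.

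Of 16 macrophage and dendritic cell markers 5 were lower in Pb, close to the 29.2% of all genes, and none higher, with a median of -0.55. Csf1r, the growth factor receptor of macrophages, had 10.4, 15.4 and 25.2 CPM in Pb kidneys, against 21.3, 30.6 and 90.0 CPM in Ta kidneys (log2 fold change -1.24 ± 0.36 SE, adjusted p = 0.00333), a call lost with the cell make-up covariates (-0.22, adjusted p = 0.576). Without Ta replicates 4, 5 and 6, the libraries with the highest macrophage markers, none of the 16 was called and the median was 0.29, and in the fit with the balance covariate 3 were lower. Among interferon genes 7 of 18 were lower and 1 higher, with 0.511, 1.43 and 1.98 CPM in Pb kidneys, against 3.25, 6.06 and 9.67 CPM in Ta kidneys for Ifit2, an antiviral protein gene (log2 fold change -2.10 ± 0.42 SE, adjusted p = 3.55e-05). Of 20 complement and fibrinogen genes 8 were lower and 2 higher, and without the same 3 Ta libraries 3 were lower and 5 higher. In the balance fit 2 interferon and 2 complement genes were lower and none higher. C7, a part of the membrane attack complex, had 9.52, 11.0 and 15.9 CPM in Pb kidneys, against 52.3, 81.9 and 474 CPM in Ta kidneys (log2 fold change -3.61 ± 0.72 SE, adjusted p = 4.25e-05). C7 was also lower without the same 3 Ta libraries (-2.59, adjusted p = 0.00236), but it was not called in the balance fit (-1.93, adjusted p = 0.288).

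Markers of tissue at the edge of a kidney sample were read in the same way. Of 9 urothelial markers, of the lining of the renal pelvis, 3 were higher and none lower, and the mean log2 CPM of the list was 2.18 to 3.78 in Pb kidneys and 1.22 to 3.66 in Ta kidneys. Krt19, a keratin, had 77.4, 98.5 and 137.8 CPM in Pb kidneys, against 34.9, 43.8 and 73.2 CPM in Ta kidneys (log2 fold change 1.16 ± 0.20 SE, adjusted p = 4.65e-06). Of 9 adipocyte markers 4 were higher and 1 lower, with list means of 1.19 to 4.32 in Pb kidneys and 1.45 to 2.87 in Ta kidneys, and 3 Pb kidneys lay above all Ta kidneys. Fabp4, the lipid carrier of fat cells, had 5.30, 21.5 and 62.7 CPM in Pb kidneys, against 4.23, 6.20 and 11.8 CPM in Ta kidneys (log2 fold change 2.00 ± 0.45 SE, adjusted p = 2.01e-04). No urothelial or adipocyte gene was called with the balance as a covariate. The part of sampled tissue in the other results was not tested.

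Among the largest differences outside the lists, Gng13, a G protein subunit, had 94.0, 153 and 197 CPM in Pb kidneys, against 12.9, 30.4 and 45.8 CPM in Ta kidneys (log2 fold change 2.35 ± 0.31 SE, adjusted p = 2.24e-08). Tomm7, a small subunit of the mitochondrial import pore, had 114, 129.4 and 190.2 CPM in Pb kidneys, against 25.0, 30.7 and 44.2 CPM in Ta kidneys (log2 fold change 2.11 ± 0.12 SE, adjusted p = 1.42e-17), and Tmem256, a small membrane protein, 113, 116 and 149.6 CPM in Pb kidneys, against 26.0, 29.3 and 41.7 CPM in Ta kidneys (log2 fold change 1.98 ± 0.11 SE, adjusted p = 7.88e-18), with the lowest p-values of the comparison among the genes named. On the lower side, Igfbp3, a carrier of insulin-like growth factors, had 3.54, 5.15 and 7.36 CPM in Pb kidneys, against 29.8, 40.9 and 93.6 CPM in Ta kidneys (log2 fold change -3.29 ± 0.74 SE, adjusted p = 1.96e-04), a call lost with the cell make-up covariates (-0.82, adjusted p = 0.141), and Ptpru, a receptor phosphatase, 1.63, 5.40 and 8.44 CPM in Pb kidneys, against 31.2, 37.8 and 45.3 CPM in Ta kidneys (log2 fold change -2.83 ± 0.59 SE, adjusted p = 7.29e-05). Tfcp2l1, a transcription factor of the collecting duct, was 6.96-fold lower (-2.80, adjusted p = 8.06e-08). All of these genes were without overlap. Tomm7 (1.48, adjusted p = 4.57e-06) and Tmem256 (1.32, adjusted p = 1.07e-06) kept their calls with the balance as a covariate.

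A second comparison asked how far Pb kidneys differed from kidneys with the other 4 metals, with the same 7 Pb libraries. No Ta level enters this difference, but Ta libraries are part of the fit over all 47 libraries and so of its filter and its estimate of the spread. In this test 6744 of 15868 genes were called (42.5%), with 3169 higher in Pb (20.0%) and 3575 lower (22.5%). Of the 13 podocyte genes 13 were lower, of the 14 endothelial genes 12, and of the 41 ribosomal protein genes 41 were higher. Podxl changed by -2.27 ± 0.45 (SE, adjusted p = 7.80e-05) and averaged 17.0 CPM in W, 13.9 CPM in Co, 12.7 CPM in Al and 25.0 CPM in DU kidneys, in each case above the 3.42 CPM of Pb kidneys. Kdr changed by -2.85 ± 0.55 (SE, adjusted p = 5.41e-05), with means of 26.1 CPM in W, 18.3 CPM in Co, 13.4 CPM in Al and 38.2 CPM in DU kidneys. Mt2A and Havcr1 were not called, with changes of 0.33 ± 0.27 (SE, adjusted p = 0.341) for Mt2A and 0.47 ± 0.59 (SE, adjusted p = 0.555) for Havcr1, while Gstp1 was higher in Pb by 0.69 ± 0.14 (SE, adjusted p = 9.53e-05). A fold of at least 1.5 against these 4 metals was called for 362 genes, 40 higher and 322 lower, against 2974 in the comparison with Ta (1102 higher and 1872 lower).

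Libraries of the other metals reached Pb levels in part. The mean log2 CPM of podocyte markers was 2.58 to 3.40 in Pb kidneys, and 2 of the 32 other libraries (Al) lay inside that range and 2 (Co) below it. For endothelial markers, at 3.04 to 3.95 in Pb kidneys, 9 of 32 lay inside it, 3 each of W, Co and Al. For proximal tubule S1 and S2 markers, at 6.47 to 7.69, 13 of 32 lay inside and 1 DU kidney below. The balance of ribosomal and very large proteins was 2.98 to 4.33 in Pb kidneys, and 2 of 32 libraries lay inside that range and none above it. The genes with the smallest p-values in this comparison included Tmem256, changed by 0.95 ± 0.083 (SE, adjusted p = 8.88e-11), Tomm7, by 0.97 ± 0.091 (SE, adjusted p = 4.49e-10), and Naa38, an acetyltransferase subunit, by 0.81 ± 0.079 (SE, adjusted p = 9.41e-10). One of the genes named by that rule was lower, Arfgef1, an exchange factor of Golgi traffic (-0.69, adjusted p = 8.05e-09).

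**Figure D5:**
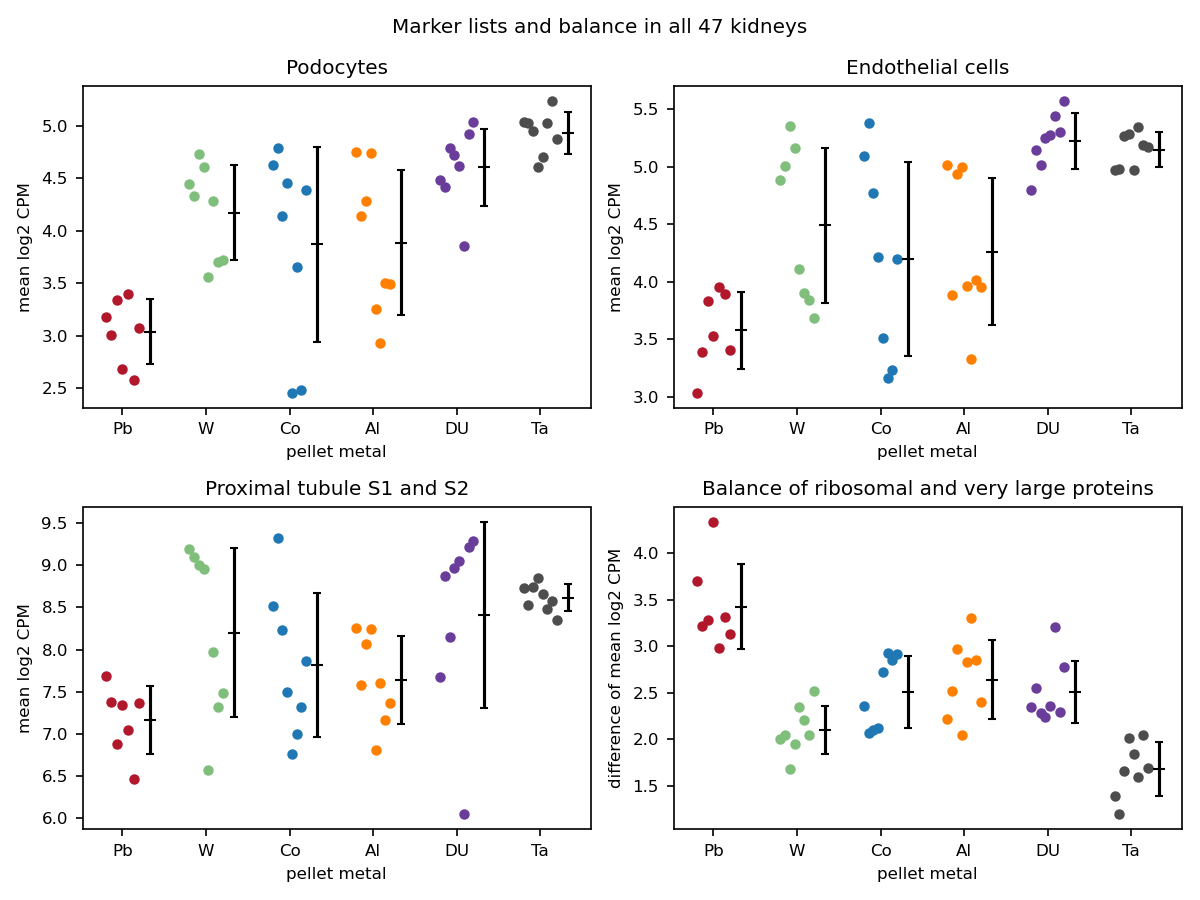
Mean log2 CPM of podocyte, endothelial and proximal tubule S1 and S2 markers, and the balance of ribosomal and very large protein genes (difference of mean log2 CPM), in all 47 kidneys by pellet metal (x axis), as points per kidney with mean ± SD. Axes do not start at 0. Pb kidneys (left) lie apart from Ta kidneys (right) in all 4 panels, and some kidneys of other metals reach the Pb range: Al and Co in the podocyte panel, W, Co and Al in the endothelial panel, all 4 in the S1 and S2 panel, and Al and DU in the balance panel.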

How the data were processed

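RNA sequencing libraries of 47 kidneys were read from 1 table of deposited whole-number counts per gene. Per the submitters' processing notes, STAR 2.7.2a, featureCounts of Subread 1.6.4 and the build mRatBN7.2 were used. Strand setting, treatment of reads with several matches and annotation release are not given in the sources used here. Gene symbols are those of the table, and 29 lines were left out: the entries of 5 long genes, which break over several lines there.

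Counts were tested with edgeR 4.0.16 under R 4.3.3, with TMM scaling, filterByExpr and a quasi-likelihood fit over all 6 groups. A threshold of 0.05 was set on Benjamini-Hochberg adjusted p-values. Alternatives used DESeq2 1.42.0 and limma 3.58.1. P-values set the difference between groups against the spread among libraries, which was estimated over all 6 groups. No pair of libraries agreed within sampling noise: in the 49 pairs of Pb or of Ta libraries, chi-square divided by its degrees of freedom was 17.1 or more. The code was tested on simulated data in which far fewer genes changed than were called here. That test therefore does not cover the scaling of libraries that differ in so many genes.

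Members and lists were chosen with earlier results of these data known. A rule took up 240 genes: the largest differences, the leading called members of each list, a panel of kidney and metal markers, and the genes with the lowest p-values against the other metals. Of these, 133 are named, some others are not reported here, and 25 further list members were chosen after their values were seen: Alas1, Atp5f1a, Casr, Cubn, Cyp27b1, Egfl7, Fech, Hmox2, Lrp2, Miox, Ndufs1, Nphs1, Pck1, Pdgfrb, Plvap, Pth1r, Ptpro, S100g, Sdha, Slc30a1, Slc34a1, Slc34a3, Slc5a10, Vwf and Wt1. A planned split by protein length was not run, since no protein table was used here.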

Additional observations from a re-analysis of the deposited data

Results flagged for a closer look

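Among 316 sets of library values, 1 for each gene named and group, 33 held a kidney far from the rest. The measure was the gap from that kidney to the nearest one as a share of the group's whole range of log2(CPM + 1), set against Dixon's critical value. Chance flags about 1 in 20 such groups. Of the 33, 15 were Ta replicate 4 and 8 were Pb replicate 4. Pb replicate 4 was the lowest Pb kidney for Cd2ap (0.5980), Ireb2 (0.6620), Kdm5a (0.6019) and Trpm7 (0.7561), with the share in parentheses. Pb replicate 4 was the highest Pb kidney for Naa38 (0.6071), Psmb6 (0.6105), Rpl27 (0.6640) and Tomm7 (0.6323), with the share in parentheses. Ta replicate 4 was the lowest Ta kidney for Agt (0.8005), Alas1 (0.5820), Atp5f1a (0.5765), Cldn10 (0.5335), Egf (0.5711), Kl (0.5264), Ndufs1 (0.5985), Nphs1 (0.5901), Osgin1 (0.6136), Sdha (0.5879), Txnrd1 (0.5780), Umod (0.5556) and Vwf (0.6148), with the share in parentheses. Ta replicate 4 was the highest Ta kidney for Cyp27b1 (0.5959) and Krt19 (0.5262), with the share in parentheses. In the other Pb kidneys the share was 0.5815 for Atp2b1 (highest in replicate 6), 0.6201 for C7 (highest in replicate 1), 0.7146 for Cubn (highest in replicate 5) and 0.6519 for Ptpro (lowest in replicate 6). In the other Ta kidneys the share was 0.6293 for Cpox (highest in replicate 5), 0.5456 for Cpt1a (highest in replicate 1), 0.6230 for Hif1a (lowest in replicate 5), 0.5744 for Mrpl52 (lowest in replicate 6), 0.6147 for Mtf1 (highest in replicate 3) and 0.5718 for Psmb6 (highest in replicate 7). Trpm7 in Pb replicate 4 was 29.9 CPM, with 47.8 to 55.6 CPM in the other Pb kidneys. Agt in Ta replicate 4 was 41.7 CPM, with 108 to 137.4 CPM in the other Ta kidneys.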

How the results depend on the processing

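Between Pb and Ta kidneys 8517 genes were called, against 8794 by DESeq2 (4190 higher and 4604 lower), 9773 by limma voom with sample quality weights (4711 and 5062), 8539 with RLE factors, 8526 with upper quartile factors, 9139 without a filter on low counts, 8442 with a strict one and 8699 with Pb and Ta libraries alone. Leaving out 1 library at a time gave 8081 to 8502, and leaving out Ta replicates 4, 5 and 6 gave 7844. Requiring a fold of at least 1.5 left 2974 (1102 higher and 1872 lower), and 362 (40 and 322) against the other 4 metals, a stricter question by construction. The balance covariate left 854 (467 higher and 387 lower), and the cell make-up covariates 6456 (3007 and 3449). With the replicate number as a replicate block 8507 genes were called (3950 higher and 4557 lower). Same-numbered Pb and Ta libraries correlated in their deviations from the group means by -0.12 to 0.212, with 1 of 7 pairs over 0.1. The labels do not say that equal numbers shared any handling, and a shared handling was not tested. Against the other 4 metals 6744 genes were called, and 5865 to 6441 without 1 Pb library.

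Among the called of the 158 genes named here, the covariates of cell make-up ended the call of 20, leaving out Ta replicates 4, 5 and 6 that of 7, and leaving out some single library that of 5. With the balance covariate most of these called genes lost the call, and 23 kept it. The sign was turned under the balance covariate for these genes, with log2 fold changes of -0.24 for Atf4, 0.41 for Atp11a, 0.069 for Casr, -2.29 for Clu, 0.10 for Egf, 0.18 for Fech, -0.013 for Fth1, -2.90 for Havcr1, -0.12 for Hspa5, -4.90 for Lcn2, 0.70 for Lrp2, -1.05 for Mt2A, 0.36 for Ndufs1, -0.43 for Nqo1, 0.62 for Slc12a1, 0.48 for Slc30a1, 0.74 for Slc34a1, 0.80 for Slc9a3, -2.35 for Spp1, 0.14 for Tfrc, -2.68 for Timp1 and 1.01 for Umod. Of these, Clu, Lcn2 and Timp1 were called lower in that fit. The sign was also turned under the covariates of cell make-up for these genes, with log2 fold changes of 0.042 for Egfl7, 0.40 for Hmox1, 0.63 for Mt1 (called, adjusted p = 0.0327), -0.19 for Nqo1, 0.43 for Slc34a1 and 0.094 for Slc34a3. It was 0.035 for Hmox1, -0.051 for Nqo1 and -0.013 for Sdha by limma voom. It was 0.57 for Hmox1, 0.024 for Mt1, -0.063 for Nqo1 and -0.050 for Sdha without Ta replicates 4, 5 and 6. It was 0.011 for Mt1 and 0.00034 for Umod by DESeq2. It was 0.011 for Mt1 and 0.00034 for Umod with RLE factors. It was 0.0042 for Mt1 with the strict filter. It was 0.010 for Mt1 with Pb and Ta libraries alone. Leaving out 1 library at a time gave -0.35 to 0.19 for Hmox1, -0.21 to 0.10 for Mt1, -0.16 to 0.10 for Nqo1, -0.0053 to 0.082 for Sdha and -0.17 to 0.085 for Umod, none of which was called. The cause of these changes was not tested. Depth limits genes near 0 CPM, such as Cyp27b1, Slc15a1 and Mt3.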
